A study of Mus musculus with 24 samples.

Results

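Chemokine ligands are the small secreted proteins that steer leukocytes between blood and tissue, and 33 of their genes were examined here, out of 55471 genes in the deposited tables: 19 of the CC class, 12 of the CXC class, Cx3cl1 and Xcl1. They were taken from a fixed list of symbols, matched to the gene identifiers of the files through the GENCODE M21 annotation of GRCm38. The matching uses no measured value, but the list was chosen with earlier results of these data known. The series concerns a mouse sarcoma model, and its polyA libraries were made from the skin or the bone of females aged 10 weeks. In each tissue 4 libraries carried the treatment label F-PRT, taken to mean FLASH proton radiotherapy, in which protons are given at an ultra-high dose rate. A further 4 were labelled S-PRT, taken to mean protons at the standard dose rate, and 4 were Untreated. The labels name no strain, no allele, no dose, no time between the beam and the harvest, and no site from which the bone or skin was taken, and they do not say whether a tumour was present in these mice. The 24 libraries thus form 6 groups of 4 biological replicates, and n = 4 for every mean ± SD.

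Chemokines fall into classes by the spacing of their first cysteines, and each acts on one or a few G protein-coupled receptors. Inflammatory ligands are switched on in macrophages, stromal cells, endothelium and epithelium by interferons or by signals through NF-kB, and they draw in monocytes, activated T cells or neutrophils. Homeostatic ligands are made without such a stimulus and place resting leukocytes in tissues: CCL27 of keratinocytes draws skin-homing T cells through CCR10, and CXCL13 draws B cells into follicles through CXCR5. In marrow the balance between CXCL12, which holds neutrophils and progenitors, and the neutrophil-attracting ligands of CXCR2 governs release into blood.

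Windows before 4 ligand genes are shown because they cover the widest rises of the CXC class in bone and a fall in skin. Each is the 250 bases before the transcription start in RefSeq on GRCm38.p6, on the strand of its gene. Cxcl9 (chr5:92328080-92328329, minus strand) and Cxcl10 (chr5:92348890-92349139, minus strand) encode ligands of CXCR3, Cxcl13 (chr5:95956689-95956938, plus strand) the ligand of CXCR5, and Cxcl1 (chr5:90890995-90891244, plus strand) a ligand of CXCR2. In bone the first 3 rose after both beams, and in skin Cxcl1 fell after S-PRT. Capitals mark matches, on either strand, to an interferon-stimulated response element written GAAANNGAAA, to a STAT element written TTCNNNGAA, or to an NF-kB element written GGGNNNTTCC.
Cxcl9: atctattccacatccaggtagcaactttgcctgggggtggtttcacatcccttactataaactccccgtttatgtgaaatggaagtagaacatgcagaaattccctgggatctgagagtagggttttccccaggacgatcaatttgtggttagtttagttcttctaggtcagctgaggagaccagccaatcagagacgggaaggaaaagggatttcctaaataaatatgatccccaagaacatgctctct
Cxcl10: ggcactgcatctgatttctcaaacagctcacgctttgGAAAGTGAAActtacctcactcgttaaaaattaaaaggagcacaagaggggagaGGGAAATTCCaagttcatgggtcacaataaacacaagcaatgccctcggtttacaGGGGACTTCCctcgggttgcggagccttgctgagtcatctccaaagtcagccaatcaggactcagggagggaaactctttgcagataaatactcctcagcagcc
Cxcl13: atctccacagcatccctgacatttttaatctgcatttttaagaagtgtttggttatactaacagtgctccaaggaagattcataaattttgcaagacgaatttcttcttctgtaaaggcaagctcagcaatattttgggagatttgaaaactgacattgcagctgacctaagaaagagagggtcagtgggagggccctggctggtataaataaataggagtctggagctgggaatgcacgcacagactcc
Cxcl1: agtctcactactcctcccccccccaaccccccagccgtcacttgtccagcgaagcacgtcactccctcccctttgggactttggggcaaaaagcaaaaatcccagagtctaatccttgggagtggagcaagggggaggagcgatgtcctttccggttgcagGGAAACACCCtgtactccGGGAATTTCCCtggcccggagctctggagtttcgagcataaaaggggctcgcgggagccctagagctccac
In the Cxcl10 window the interferon-stimulated element begins 213 bases before the start, and 2 NF-kB matches follow, the farther one at 159 bases. The Cxcl1 window holds 3 NF-kB matches, the farthest at 89 bases, of which the nearer pair overlaps. No match of these letters lies in the Cxcl9 or Cxcl13 window. RefSeq entries were found for 23 of the 33 ligands, with 29 windows in all. A window with the interferon-stimulated element was found for 3 of these ligands, with the STAT element for 2 and with the NF-kB element for 6. Among 32851 windows of this length over all genes in the table, the elements were present in 2.98%, 7.02% and 4.65%. A match is a run of letters and not evidence of binding.

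Totals of expected counts ran from 16418026 to 22088370 per skin library and from 10909700 to 17361478 per bone library. A gene was called measured in a tissue when it passed the low-count filter of edgeR there. Levels are CPM scaled by the TMM factors of the tissue, and levels of different genes are compared only as deposited TPM, which divides by transcript length. Adjusted p is the Benjamini-Hochberg value of edgeR's quasi-likelihood test over all measured genes, and a gene is said to have risen or fallen only below 0.05. Tissue labels were checked against markers: 8 basal keratinocyte markers summed to between 8574 and 33115 CPM in skin and between 294 and 449 CPM in bone. The 8 osteoblast markers summed to between 15.4 and 21.2 CPM in skin and between 1143 and 2597 CPM in bone. Of these 8, only Ibsp was at 0 in every skin library. Libraries within a group were not all alike. Skin S-PRT 4 held 337 CPM of 8 summed fibroblast markers and 147 CPM of 8 macrophage markers, against 3641 to 4814 and 797 to 942 CPM in the other S-PRT libraries, and of the 26 ligands measured in skin 13 had their lowest value there. Skin Untreated 1, bone Untreated 1, bone F-PRT 2 and bone F-PRT 3 also stood apart in marker sums, and calls gained or lost without these 5 libraries are given beside the result. Other libraries differed too. Summed skeletal muscle markers ran from 20.5 to 22322 CPM in skin and from 566 to 16367 CPM in bone. They were highest in skin S-PRT 1 and bone F-PRT 3. Skin S-PRT 1, not among the 5, also held 1097 CPM of hair follicle markers, against 14.6 to 211 CPM in other S-PRT libraries. The part of this tissue mix in the ligand levels was not tested. Bone Untreated 1 was the shallowest library, held 1771 CPM of summed neutrophil markers against 6513 to 9734 CPM in the other untreated bone libraries, and had the lowest value of 11 of the 23 ligands measured in bone.

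Of the 33 ligands, 26 were measured in skin and 23 in bone. Both tissues measured 18 of them. Skin alone measured Ccl17, Ccl20, Ccl27b, Ccl28, Cxcl1, Cxcl2, Cxcl3 and Cxcl11. Bone alone measured Ccl3, Ccl4, Ccl5, Cxcl5 and Xcl1. Cxcl15, a ligand known from lung, and Cxcl17, known from mucosal surfaces, were measured in neither: Cxcl15 was at 0 in every skin library and Cxcl17 in every bone library.

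In untreated skin the ligand with the highest level was Ccl27a, the T cell attractant of keratinocytes, at 198, 169, 161 and 166 TPM. Cxcl14, a homeostatic ligand of epithelium and stroma, stood at 89.6, 76.2, 85.0 and 48.8 TPM, and Ccl27b, the near-identical second copy of Ccl27a, at 86.9, 75.2, 54.5 and 66.0 TPM. These 2 did not separate from each other, while Ccl27a lay above both in every library. Ccl20, the ligand of CCR6, followed at 26.3, 75.7, 19.4 and 25.2 TPM, Ccl8 at 56.5, 38.3, 7.98 and 28.6 TPM and Ccl6 at 26.9, 24.5, 9.43 and 27.6 TPM. The ranges of Ccl20, Ccl8 and Ccl6 overlapped, so that their order is not fixed by these libraries. The next ligand, Cxcl16, had a mean of 17.6 ± 6.55 TPM, and the other 26 lay at or below a mean of 9.12 TPM.

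Untreated bone was led by Ccl6, a macrophage and neutrophil product found in rodents, at 19.0, 47.7, 80.3 and 78.7 TPM, and by Cxcl14 at 21.6, 39.8, 41.1 and 41.6 TPM. The 2 overlapped. Ccl9, made by myeloid cells and osteoclasts and acting through CCR1, stood at 3.84, 6.10, 11.1 and 7.96 TPM, and Ccl25, the ligand of CCR9, at 6.41, 7.03, 7.76 and 6.64 TPM. Cxcl9 was at 1.39, 4.92, 7.08 and 4.21 TPM and Ccl5 at 0.990, 4.24, 4.61 and 5.12 TPM. All of these 4 overlapped one another except Ccl25 and Ccl5, and every other ligand had a mean of 2.71 TPM or less.

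**Figure D1:**
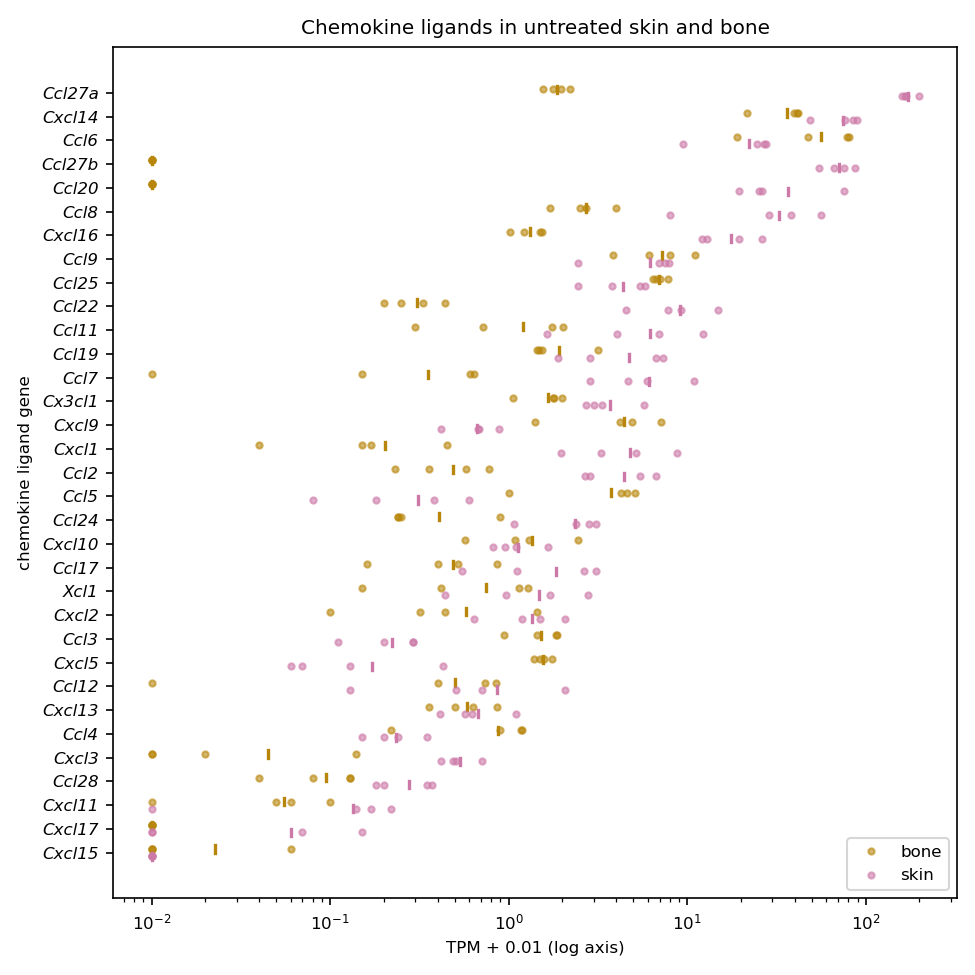
Levels of the 33 chemokine ligands in untreated skin and bone, as TPM + 0.01 on a log axis, with 1 point per library (4 per tissue) and a bar at each mean. Ccl27a and Cxcl14 lead in skin and Ccl6 and Cxcl14 in bone, and Ccl20 and Ccl27b sit at the left edge in bone because all 4 libraries are at 0.

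Between the untreated tissues, 17 of the 31 ligands measured over all 24 libraries were higher in skin and 7 lower, where 32.6% of the 20754 genes tested were higher and 32.6% lower. The contrast was widest for the epithelial ligands. Ccl20 had 0 counts in all 4 untreated bone libraries and 2916 in the skin libraries, which makes it at least 761-fold higher in skin against a floor of 3 counts over the bone group. Ccl27b, with 0 bone counts as well, was at least 494-fold higher in skin by the same floor. That floor takes the division of reads between Ccl27b and Ccl27a as given, and Ccl27a held 13.8 to 26.7 counts per untreated bone library. Ccl27a was 48.4-fold higher in skin (log2 difference 5.60 ± 0.28, SE, edgeR adjusted p = 1.13e-13). Ccl22, a dendritic cell ligand of CCR4, was 31.4-fold higher, Cxcl1 23.4-fold, the monocyte attractants Ccl7 and Ccl2 18.8-fold and 9.30-fold, and the transmembrane ligand Cxcl16 13.6-fold. Ligands higher in bone were the T cell and monocyte attractant Ccl5 (12.3-fold, adjusted p = 1.58e-05 by edgeR), the CXCR2 ligand Cxcl5 (8.39-fold), the macrophage products Ccl3 (6.79-fold) and Ccl4 (3.63-fold), Cxcl9 (4.87-fold), Ccl6 (2.18-fold) and Ccl25 (1.54-fold). The calls for Ccl6, Ccl19, Ccl25 and Cxcl2 did not hold in some of the other fits, with edgeR adjusted p reaching 0.113, 0.129, 0.0672 and 0.127. Ccl9, Ccl12, Ccl17, Cxcl10, Cxcl11, Cxcl13 and Xcl1 did not pass, although Cxcl11 passed without the libraries that stand apart (adjusted p = 0.0496), Ccl17 with DESeq2 and in 3 fits that leave out 1 library (0.0219 to 0.0498), and Xcl1 without skin Untreated 3 (0.042). In these 2 tissues as a whole, a difference in the number of cells of a type and a difference in RNA per cell cannot be told apart.

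In bone, most of the measured chemokine ligands were higher after irradiation. After F-PRT 16 of 23 rose and 1 fell, where 15.5% of 18848 genes rose and 17.2% fell. After S-PRT 12 of 23 rose and 1 fell, where 13.3% of genes rose and 15.2% fell. Ccl3, Ccl4, Ccl9 and Xcl1 passed after F-PRT and not after S-PRT, and none of these passed when the beams were compared directly. The median log2 change over the 23 ligands was 1.56 after F-PRT and 1.05 after S-PRT, against -0.01 over all genes in each comparison. Both comparisons share the 4 untreated libraries. Without the libraries that stand apart, 12 of 24 rose after F-PRT and 12 of 24 after S-PRT. The shares over all genes given above belong to the fits with all libraries, and none is set beside these 2 counts. The ligand that fell was Cxcl5 with both beams.

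**Figure D2:**
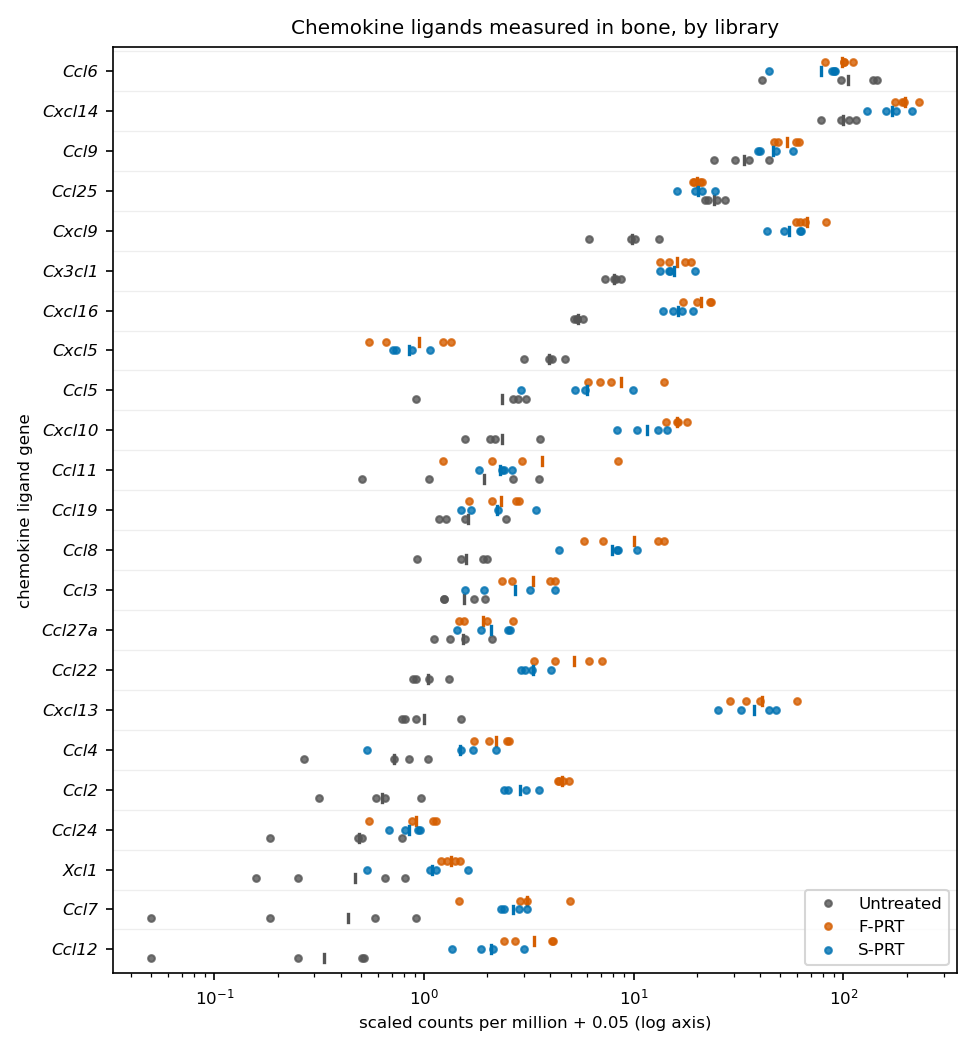
The 23 chemokine ligands measured in bone, as scaled CPM + 0.05 on a log axis, with 1 point per library, 4 libraries per treatment and a bar at each mean, ordered by the untreated mean. Cxcl13 shows the widest gap, from 0.737 to 1.45 CPM in untreated bone to between 25.0 and 59.7 CPM after either beam, and Cxcl5 lies lower in all 8 irradiated libraries.

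The largest rise was that of Cxcl13, the B cell attractant of follicles, also made by macrophages and stromal cells. It stood at 28.6, 59.7, 34.4 and 40.1 CPM in the F-PRT libraries, 25.0, 32.4, 47.7 and 44.2 in S-PRT and 0.759, 1.45, 0.867 and 0.737 in Untreated. The irradiated libraries did not overlap the untreated ones, and no other ligand showed so wide a gap. The log2 change was 5.40 ± 0.33 (SE) after F-PRT, a 42.2-fold rise, and 5.27 ± 0.33 after S-PRT, a 38.7-fold rise (edgeR adjusted p = 2.00e-07 and 2.54e-07). Its receptor gene Cxcr5 had log2 changes of 0.62 and 0.59 and did not pass (edgeR adjusted p = 0.0912 and 0.114). Of 6 B cell markers none rose, 3 fell after F-PRT and 2 fell after S-PRT. In TPM, Cxcl13 went from the 18th level among the ligands in untreated bone, at 0.578 ± 0.213 TPM, to 40.9 ± 11.5 TPM after F-PRT.

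Both measured ligands of CXCR3, the receptor of activated T cells and NK cells, rose. Cxcl9, which is induced by interferon gamma, stood at 59.1, 61.7, 82.1 and 65.4 CPM in the F-PRT libraries, 62.7, 43.0, 62.2 and 51.9 in S-PRT and 6.07, 10.1, 13.1 and 9.65 in Untreated. Every irradiated library was above every untreated one, with a 6.81-fold rise after F-PRT and a 5.58-fold rise after S-PRT (edgeR adjusted p = 8.36e-07 and 2.11e-06). Cxcl10, which type I interferon and NF-kB signals also induce, stood at 16.2, 16.0, 14.1 and 17.9 CPM in the F-PRT libraries, 12.95, 8.22, 14.4 and 10.4 in S-PRT and 1.52, 2.13, 3.53 and 2.01 in Untreated. Here too the groups did not overlap, and the rises were 6.82-fold and 4.89-fold (edgeR adjusted p = 2.55e-06 and 1.42e-05). Cxcl11, the third gene of that locus, was not measured in bone and reached at most 0.913 CPM there. The receptor Cxcr3 itself rose, from 1.95, 4.95, 6.20 and 6.499 CPM to 11.5, 11.7, 15.9 and 11.8 after F-PRT and 13.2, 8.22, 11.8 and 12.5 after S-PRT (log2 change 1.34 ± 0.27 and 1.19 ± 0.27, edgeR adjusted p = 0.002 and 0.00492).

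The monocyte attractants of the Ccl2 locus rose together. Ccl2, the main ligand of CCR2, stood at 4.53, 4.84, 4.32 and 4.35 CPM in the F-PRT libraries, 3.48, 2.35, 3.02 and 2.47 in S-PRT and 0.542, 0.915, 0.267 and 0.603 in Untreated. The 3 groups were separate, with F-PRT highest, and the rises over untreated were 7.72-fold and 4.85-fold (edgeR adjusted p = 7.39e-06 and 7.66e-05). Ccl7, which binds CCR2 and other receptors, stood at 1.41, 2.83, 3.04 and 4.91 CPM in the F-PRT libraries, 2.28, 2.35, 2.77 and 3.03 in S-PRT and 0.868, 0, 0.534 and 0.134 in Untreated. Its irradiated libraries all exceeded the untreated ones, of which 1 was at 0, and the fitted rises were 8.44-fold and 7.24-fold (edgeR adjusted p = 0.0014 and 0.0028). Ccl12, the mouse gene known as MCP-5, stood at 2.35, 4.07, 2.68 and 4.04 CPM in the F-PRT libraries, 1.83, 1.31, 2.96 and 2.09 in S-PRT and 0, 0.457, 0.200 and 0.469 in Untreated. Its rises of 10.7-fold and 6.66-fold started from untreated levels between 0 and 0.469 CPM (edgeR adjusted p = 1.22e-04 and 9.21e-04), and the one after F-PRT was the widest of the CC class.

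Ccl8, a monocyte and T cell attractant made by tissue macrophages, stood at 5.76, 7.08, 13.8 and 13.1 CPM in the F-PRT libraries, 8.27, 4.35, 10.3 and 8.34 in S-PRT and 1.95, 1.45, 1.87 and 0.871 in Untreated. No irradiated library fell within the untreated range, and the rises were 6.54-fold and 5.15-fold (edgeR adjusted p = 1.16e-04 and 3.92e-04). Ccl11, the eosinophil attractant known as eotaxin, sits between Ccl7 and Ccl12 on the chromosome and did not pass. Its libraries overlapped throughout, from 0.457 to 8.34 CPM, with F-PRT 3 highest (edgeR adjusted p = 0.232 and 0.756). The receptor Ccr2 had log2 changes of 0.47 and 0.22 and did not pass (edgeR adjusted p = 0.0623 and 0.399).

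The ligands of the Ccl5 locus had smaller changes. Ccl5, made by T cells, NK cells and macrophages, stood at 5.998, 7.73, 13.9 and 6.84 CPM in the F-PRT libraries, 9.81, 2.83, 5.79 and 5.18 in S-PRT and 0.868, 2.74, 2.60 and 3.01 in Untreated. After F-PRT the groups did not overlap and the rise was 3.63-fold (edgeR adjusted p = 0.00353). After S-PRT replicate 2 lay within the untreated range, and the 2.50-fold rise passed at edgeR adjusted p = 0.0271 but not without S-PRT 1, without Untreated 3, with voom or with the replicate block, where it reached 0.102. Ccl3 and Ccl4, the macrophage inflammatory proteins 1 alpha and beta, rose 2.15-fold and 3.08-fold after F-PRT (edgeR adjusted p = 0.0226 and 0.00994). Ccl3 stood at 2.59, 3.95, 4.14 and 2.30 CPM in the F-PRT libraries, 1.88, 1.52, 3.14 and 4.17 in S-PRT and 1.19, 1.91, 1.20 and 1.67 in Untreated. Ccl4 stood at 2.00, 2.48, 2.43 and 1.68 CPM in the F-PRT libraries, 1.65, 0.484, 1.45 and 2.15 in S-PRT and 0.217, 0.991, 0.800 and 0.670 in Untreated. For both, the S-PRT libraries overlapped the untreated ones, and neither passed after S-PRT (edgeR adjusted p = 0.0852 and 0.0873). Without S-PRT 2, which had the lowest S-PRT value of each, these became 0.0352 and 0.0167. The F-PRT calls of Ccl3, Ccl4, Ccl9 and Xcl1 were lost without the libraries that stand apart, with adjusted p from 0.0663 to 0.323.

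Ccl9 stood at 46.7, 61.2, 48.6 and 59.2 CPM in the F-PRT libraries, 39.1, 39.9, 47.7 and 57.1 in S-PRT and 23.97, 30.2, 44.1 and 35.2 in Untreated. F-PRT libraries were all above the untreated ones, a 1.61-fold rise (edgeR adjusted p = 0.00911), and S-PRT libraries overlapped them (1.37-fold, edgeR adjusted p = 0.0692). The S-PRT rise passed with DESeq2 (0.0411), without a low-count filter (0.0269), with the replicate block (0.0385) and without Untreated 3 (0.0193). Ccl6, of the same locus, stood at 82.0, 101, 99.98 and 112 CPM in the F-PRT libraries, 90.8, 44.0, 87.6 and 90.2 in S-PRT and 40.8, 97.5, 138 and 145 in Untreated. Log2 changes were -0.10 and -0.43 (edgeR adjusted p = 0.837 and 0.34), and Untreated 1 and S-PRT 2 were the low libraries of their groups. The value after S-PRT passed as a fall without Untreated 1 (adjusted p = 0.0316), without the libraries that stand apart (0.0454) and with voom (0.0494). Receptor Ccr1 had a log2 change of -0.47 after F-PRT, which did not pass, and fell by 0.58 on the log2 scale after S-PRT (edgeR adjusted p = 0.0721 and 0.0331), a call lost in 6 of the other fits.

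Ccl22, which dendritic cells and macrophages make to draw CCR4-bearing T cells, stood at 4.17, 7.02, 6.09 and 3.30 CPM in the F-PRT libraries, 2.85, 2.97, 3.98 and 3.22 in S-PRT and 0.868, 0.838, 1.27 and 1.00 in Untreated. Every irradiated library exceeded every untreated one, with rises of 5.09-fold and 3.22-fold (edgeR adjusted p = 3.31e-05 and 5.86e-04). Xcl1, by which NK and CD8 T cells draw cross-presenting dendritic cells, stood at 1.35, 1.24, 1.16 and 1.43 CPM in the F-PRT libraries, 1.08, 0.484, 1.57 and 1.01 in S-PRT and 0.108, 0.762, 0.200 and 0.603 in Untreated. Libraries did not overlap untreated ones after F-PRT and did after S-PRT (2.95-fold, edgeR adjusted p = 0.0194, against 2.38-fold and 0.0621 after S-PRT), and the F-PRT call was lost without Untreated 3, where adjusted p was 0.0627. The S-PRT rise passed with DESeq2 (0.0402), with voom (0.0377), without S-PRT 2 (0.0291) and without Untreated 2 (0.0377). Xcr1, the one receptor of Xcl1, rose 9.12-fold and 6.65-fold, from 1.74, 0.762, 1.13 and 0.268 CPM untreated to 6.29, 10.3, 10.7 and 6.72 after F-PRT and 6.16, 5.18, 7.24 and 6.19 after S-PRT. Its libraries did not overlap between irradiated and untreated bone (edgeR adjusted p = 2.57e-05 and 1.14e-04). The Ccl22 receptor Ccr4 did not pass (edgeR adjusted p = 0.249 and 0.246).

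The 2 chemokines that are made as membrane-bound proteins rose as well. Cxcl16, a scavenger receptor and ligand of CXCR6, stood at 19.9, 23.3, 23.0 and 17.1 CPM in the F-PRT libraries, 19.1, 13.7, 15.4 and 16.9 in S-PRT and 5.32, 5.34, 5.14 and 5.69 in Untreated. Irradiated and untreated libraries did not overlap, and it rose 3.87-fold and 3.03-fold (edgeR adjusted p = 5.73e-07 and 3.26e-06). Cx3cl1, fractalkine, which tethers CX3CR1-bearing monocytes to endothelium, stood at 13.3, 17.6, 14.6 and 18.7 CPM in the F-PRT libraries, 14.7, 14.8, 13.3 and 19.5 in S-PRT and 7.27, 8.003, 8.14 and 8.64 in Untreated. It rose 1.99-fold and 1.94-fold without overlap (edgeR adjusted p = 2.13e-04 and 3.56e-04). Among the receptors, Cx3cr1 rose by 0.94 and 0.61 on the log2 scale (edgeR adjusted p = 0.00259 and 0.0325), the latter lost in 5 of the other fits. Cxcr6 rose after F-PRT alone (0.60, edgeR adjusted p = 0.03, also lost in 5 fits).

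Cxcl14, of epithelium and stroma, rose. It stood at 175, 228, 190.4 and 195 CPM in the F-PRT libraries, 159, 129.7, 177 and 213 in S-PRT and 77.7, 114, 97.3 and 107 in Untreated. Every irradiated library was above the untreated range, with rises of 1.99-fold and 1.71-fold (edgeR adjusted p = 3.28e-04 and 0.00221). Suprabasal keratinocyte markers were present in some bone libraries, with sums of 0.941, 172, 29.9 and 52.2 CPM in F-PRT and 0.915 to 4.12 CPM in Untreated, and 2.56 to 25.5 CPM in S-PRT. Of 7 suprabasal markers measured 7 rose after F-PRT and none after S-PRT. Of 7 basal keratinocyte markers measured 5 rose and 1 fell after F-PRT and 2 rose and 1 fell after S-PRT, with sums of 369 to 448 CPM, 326 to 449 and 294 to 447 in Untreated. Their part in the Cxcl14 result was not tested. Ccl25 stood at 19.3, 19.1, 21.1 and 20.6 CPM in the F-PRT libraries, 16.0, 24.4, 19.5 and 21.05 in S-PRT and 27.2, 24.9, 22.5 and 21.8 in Untreated, a narrow range with no call (edgeR adjusted p = 0.112 and 0.143). Ccl27a (1.07 to 2.62 CPM), Ccl19 (1.13 to 3.37 CPM) and Ccl24 (0.134 to 1.10 CPM) did not pass either, with edgeR adjusted p from 0.0942 upwards.

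Deposited TPM gives another reading of the flat ligands, since it carries no correction for the make-up of a library. Over all genes measured in bone the log2 ratio of mean TPM to untreated had a median of 0.70 after F-PRT and 0.63 after S-PRT, and in skin 0.22 and 0.29. On that scale in bone, Ccl6 stood at log2 ratios of 0.52 and 0.12 and Ccl25 at 0.49 and 0.46. These values are above 0 and below the median gene, so the sign of these 2 ligands depends on the scaling. The ligands that rose or fell in scaled counts kept their direction with RLE scaling. RLE corrects for the make-up of a library as TMM does, so it cannot settle the shift seen in TPM.

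The neutrophil attractant measured in bone fell. Cxcl5, a ligand of CXCR2, stood at 1.18, 1.30, 0.609 and 0.498 CPM in the F-PRT libraries, 0.685, 0.8291, 0.664 and 1.01 in S-PRT and 4.66, 4.04, 2.93 and 3.89 in Untreated. All irradiated libraries lay below all untreated ones, with falls of 4.27-fold and 4.82-fold (edgeR adjusted p = 1.97e-04 and 1.45e-04). Cxcl1, Cxcl2 and Cxcl3, which bind the same receptor, were not measured in bone and stayed between 0 and 1.08 CPM. The receptor Cxcr2, carried by neutrophils, fell from 44.8, 95.3, 144 and 162 CPM to 35.7, 39.6, 39.9 and 36.1 after F-PRT and 43.5, 19.4, 29.9 and 39.5 after S-PRT, and all irradiated libraries were below all untreated ones (log2 change -1.56 ± 0.32 and -1.75 ± 0.33, edgeR adjusted p = 0.00249 and 0.00142). Cxcr4, the receptor that holds leukocytes in marrow, fell by 1.24 and 1.31 on the log2 scale (edgeR adjusted p = 0.00146 and 0.00121). Its ligand Cxcl12, no member of the 33, rose 1.80-fold and 1.59-fold (edgeR adjusted p = 0.00709 and 0.0268, the latter lost in 4 of the other fits). The platelet chemokines Ppbp and Pf4, also outside the 33, fell as well. Ppbp fell by 2.98 on the log2 scale after F-PRT and by 3.02 after S-PRT, and Pf4 fell by 1.80 and by 1.73 (edgeR adjusted p = 2.02e-06 and 3.22e-06).

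Of 7 measured receptors of the CXC, CX3C and XC classes, 4 rose and 2 fell after F-PRT and 3 rose and 2 fell after S-PRT. Of 5 atypical receptors, which bind chemokines without G protein signalling, 1 rose and 1 fell after F-PRT and 2 rose and 1 fell after S-PRT. Ackr4, the scavenger of CCL19, CCL21 and CCL25, was the strongest, at 2.30-fold and 2.13-fold (edgeR adjusted p = 2.39e-05 and 6.47e-05). Among measured inducers and NF-kB feedback genes, Irf1 (1.44-fold) and Tnfaip3 (1.39-fold) rose after F-PRT (edgeR adjusted p = 0.0242 and 0.0142). Tnf and Il1a fell with both beams (edgeR adjusted p from 0.00786 to 0.0191). The rises of Irf1 and Tnfaip3 after F-PRT were lost in 3 and 1 of the other fits.

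Cell type markers moved in the same bone libraries. Of 8 macrophage markers 7 rose and 1, Lyz2, fell after each beam, and their sum, which Lyz2 weighs on, was 2264 to 2603 CPM in F-PRT, 1467 to 2446 in S-PRT and 1143 to 3206 in Untreated. Of 8 T cell markers 7 rose after each beam, with sums of 90.5 to 116 CPM, 65.8 to 107 and 24.8 to 49.2. Of 7 markers of dendritic and Langerhans cells 4 rose after each beam, with sums of 371 to 479 CPM, 261 to 401 and 107 to 194. All 8 neutrophil markers fell after each beam, with sums of 456 to 587 CPM, 320 to 876 and 1771 to 9734, and so did all 5 erythroid markers. Osteoclast markers (5 of 6) and endothelial markers (5 of 8, with Vwf falling) rose after each beam. Of 8 fibroblast markers 4 rose after F-PRT and 3 after S-PRT, with sums of 21608 to 41770 CPM in F-PRT, 35004 to 40288 in S-PRT and 16054 to 28900 in Untreated. Of 8 osteoblast markers 3 and 4 rose, with sums of 1410 to 2597 CPM, 2187 to 2365 and 1143 to 1572. Of 7 eosinophil markers 5 fell after each beam, with sums of 78.7 to 93.7 CPM, 29.7 to 109.9 and 35.7 to 860.1. None of the defining markers of these cell types was at 0 in bone. The part of such shifts in the ligand changes was not tested.

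In skin, few ligands moved and none rose. After F-PRT 0 of 26 measured ligands rose and 2 fell, where 1% of 19038 genes rose and 1.39% fell. After S-PRT 0 rose and 3 fell, where 1.83% of genes rose and 2.52% fell. The median log2 change over the 26 was -0.22 after F-PRT and -0.02 after S-PRT, against -0.02 and 0.00 over all genes. At an unadjusted p under 0.05 there were 5 ligands after each beam. DESeq2 called 4 after each beam, all lower, and voom called 5 and 6, of which 2 each time were higher. Without skin S-PRT 4, 7 ligands passed after S-PRT. These counts of other fits and at the unadjusted level stand without a share over all genes. They are not read as a result about the ligands. Over all genes, leaving out that library also gained calls in the tissue by S-PRT interaction. There 1029 were higher and 932 lower of 20754 genes with it, and 1388 and 1245 of 21143 without it.

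**Figure D3:**
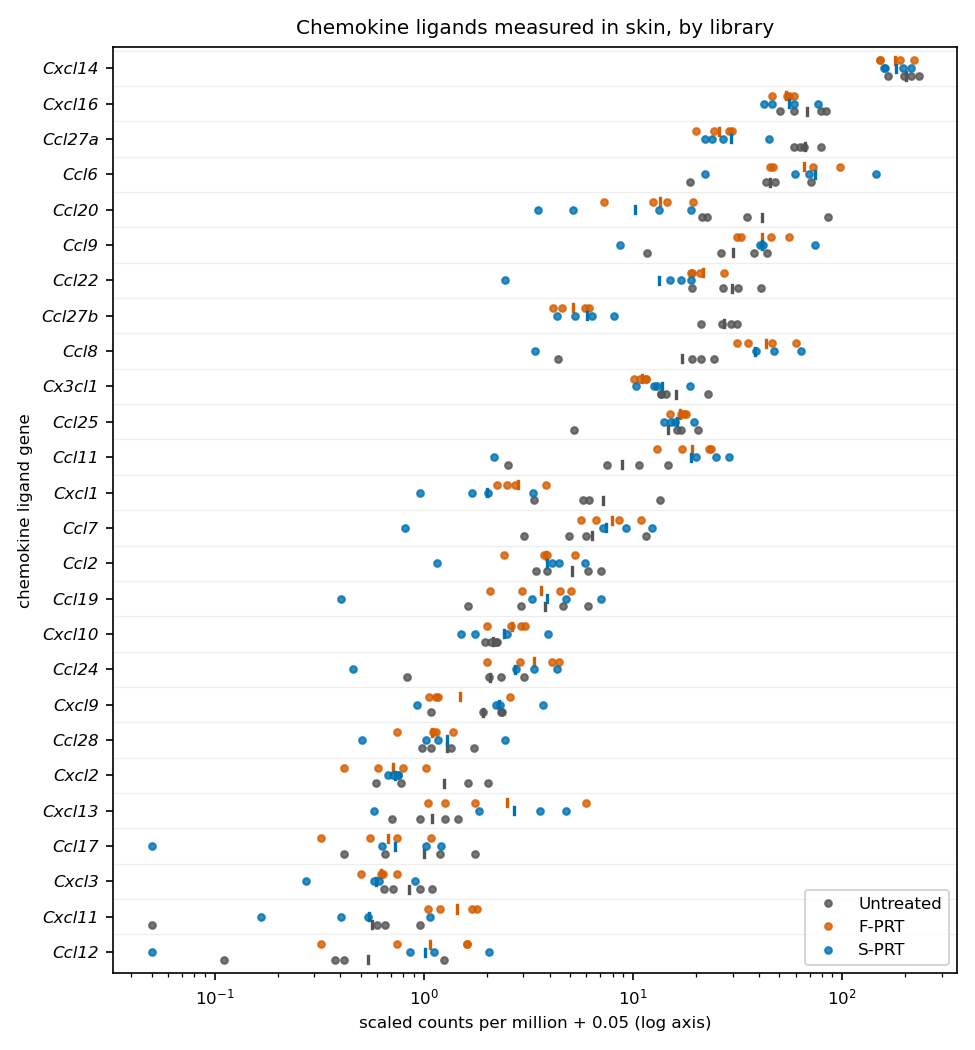
The 26 chemokine ligands measured in skin, as scaled CPM + 0.05 on a log axis, with 1 point per library, 4 libraries per treatment and a bar at each mean, ordered by the untreated mean. Ccl27a and Ccl27b are separated from untreated in every irradiated library, and for many other ligands the lowest S-PRT point is the library S-PRT 4.

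The ligands that fell after both beams were the 2 copies of the keratinocyte chemokine. Ccl27a stood at 24.4, 28.8, 29.8 and 19.9 CPM in the F-PRT libraries, 23.9, 22.2, 27.1 and 44.8 in S-PRT and 58.8, 65.7, 62.7 and 79.5 in Untreated. Each irradiated library was below each untreated one, with falls of 2.59-fold and 2.26-fold (log2 change -1.37 ± 0.22 and -1.18 ± 0.22, edgeR adjusted p = 0.00475 and 0.00823). Ccl27b stood at 5.86, 6.10, 4.52 and 4.09 CPM in the F-PRT libraries, 5.27, 4.31, 6.31 and 8.08 in S-PRT and 26.7, 29.4, 21.2 and 31.4 in Untreated. Its falls of 5.29-fold and 4.54-fold were larger and again without overlap (edgeR adjusted p = 8.55e-05 and 1.36e-04). The call for each copy held in every other fit that was run.

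The split between the copies is uncertain, because the Ccl27b transcript of 425 bases matches a Ccl27a transcript at 422 of them (99.3%) and RSEM divides shared reads. Summed over both genes, the level was 30.9 ± 5.01 CPM after F-PRT, 35.5 ± 11.95 after S-PRT and 93.8 ± 12.4 untreated. An exact two-sided permutation p of the sum against untreated was 0.0286 for either beam, the smallest that 70 arrangements of 4 against 4 allow. Each copy was already without overlap, so the sum had to be as well, and this p adds no further evidence. Between the beams the p of the same test was 0.629. Ccl27b took 13.2% to 19.3% of the summed counts after F-PRT, 15.3% to 18.9% after S-PRT and 25.3% to 31.2% in untreated skin. The receptor Ccr10 did not pass, with log2 differences of 0.02 and 0.06 (edgeR adjusted p = 0.988 and 0.952). Suprabasal keratinocyte markers summed to 11698 to 14811 CPM after F-PRT, 7407 to 13956 after S-PRT and 8256 to 19450 in Untreated, ranges that overlap, and 1 of 8 rose after F-PRT with none falling.

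Cxcl1, a neutrophil attractant through CXCR2, fell after S-PRT. It stood at 3.78, 2.19, 2.46 and 2.68 CPM in the F-PRT libraries, 1.65, 3.28, 0.908 and 1.99 in S-PRT and 5.70, 13.4, 3.33 and 6.14 in Untreated. S-PRT libraries were all below untreated ones, a 3.64-fold fall (edgeR adjusted p = 0.0342), but the call was lost in 9 of 20 other fits. These were the fit on the 8 libraries compared alone and the fits without any one of F-PRT 1 to 4, S-PRT 1, S-PRT 3, Untreated 2 or Untreated 4, and over all fits the adjusted p ran from 9.18e-04 to 0.139. After F-PRT the value was 2.57-fold lower and did not pass (edgeR adjusted p = 0.153). Its neighbours Cxcl2 (0.364 to 1.97 CPM) and Cxcl3 (0.223 to 1.04 CPM) did not pass after either beam. Neutrophil markers were scarce in skin, and Ly6g was at 0 in F-PRT and Untreated. Their summed level was 2.96 to 5.35 CPM after F-PRT, 3.51 to 4.44 after S-PRT and 8.83 to 35.5 untreated. Both neutrophil markers measured there fell after each beam, and their part in the Cxcl1 result was not tested.

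Ccl20 is made by stressed keratinocytes and draws CCR6-bearing lymphocytes and dendritic cells. It stood at 14.5, 19.3, 12.5 and 7.23 CPM in the F-PRT libraries, 3.48, 5.13, 13.3 and 19.0 in S-PRT and 22.7, 85.9, 21.5 and 35.0 in Untreated. All irradiated libraries lay below the untreated ones, yet the spread was wide, and neither comparison passed (3.09-fold lower, edgeR adjusted p = 0.19, and 4.05-fold lower, 0.0721). Without S-PRT 4 the second value was 0.0179. Both passed without the libraries that stand apart (adjusted p = 0.0409 and 0.00997), with DESeq2 (0.0459 and 0.00343) and with voom (0.0291 and 0.0134). Zc3h12a, an RNase that is itself induced by NF-kB and degrades inflammatory mRNA, had log2 changes of -1.40 and -1.32 (edgeR adjusted p = 5.91e-04 and 5.73e-04). Of 9 measured inducers and feedback genes, 4 fell after F-PRT and 6 after S-PRT, with Nfkbia and Nfkbiz in both counts and none rising.

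Ccl8 and Ccl11, products of dermal macrophages and fibroblasts, were higher in most irradiated skin libraries without passing. Ccl8 stood at 31.6, 46.5, 60.3 and 35.4 CPM in the F-PRT libraries, 38.7, 63.5, 47.4 and 3.34 in S-PRT and 24.4, 21.1, 4.35 and 19.1 in Untreated. F-PRT did not overlap untreated, and S-PRT did so through S-PRT 4 alone (edgeR adjusted p = 0.377 and 0.413). Ccl11 stood at 12.9, 23.1, 23.7 and 17.1 CPM in the F-PRT libraries, 20.0, 25.1, 28.9 and 2.11 in S-PRT and 14.7, 10.6, 2.48 and 7.48 in Untreated. Both ligands passed after S-PRT without S-PRT 4 (adjusted p = 0.0361 and 0.0384), and after both beams without the libraries that stand apart. Summed fibroblast markers were 3051 to 3911 CPM in F-PRT, 337 to 4814 in S-PRT and 843 to 2949 in Untreated, and macrophage markers 628 to 954, 147 to 942 and 180 to 605. S-PRT 4 was the lowest library for these sums and for both ligands in the S-PRT group, and Untreated 3 was so in the Untreated group. The libraries that stand apart include S-PRT 4 and Untreated 1, the highest untreated library for both ligands, but not Untreated 3. Leaving that set out therefore raises the S-PRT level of both ligands and lowers their untreated level. The part of cell make-up was not tested.

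Ccl6 stood at 45.4, 72.6, 97.9 and 46.9 CPM in the F-PRT libraries, 69.7, 59.7, 145 and 22.2 in S-PRT and 43.5, 47.6, 18.7 and 70.7 in Untreated, with all 3 groups overlapping (edgeR adjusted p = 0.672 and 0.517). Cxcl14 stood at 222, 152, 190.2 and 152 CPM in the F-PRT libraries, 160.1, 159, 195 and 214 in S-PRT and 198, 214, 233 and 166 in Untreated, again with overlap throughout (edgeR adjusted p = 0.654 and 0.687). Cx3cl1 was lower in every F-PRT library than in any untreated one, at 1.46-fold, but did not pass (edgeR adjusted p = 0.24). The remaining ligands had log2 changes from -0.88 for Cxcl2 to 1.44 for Cxcl11 after F-PRT and from -1.16 for Ccl22 to 1.34 for Cxcl13 after S-PRT. Cxcl11 is annotated as a polymorphic pseudogene and shares 41.7% of its exon bases with Gm2673 on the other strand. Of the receptors, Ccr4, which receives CCL17 and CCL22 on skin-homing T cells, was the one that fell in skin: it stood at 3.03, 3.22, 3.37 and 3.95 CPM in the F-PRT libraries, 3.17, 3.90, 3.33 and 3.22 in S-PRT and between 7.40 and 10.3 in Untreated. The groups did not overlap, and the fall was 1.42 on the log2 scale after each beam (edgeR adjusted p = 8.47e-04 and 5.38e-04). Its ligands Ccl17 and Ccl22 did not pass (edgeR adjusted p from 0.195 to 0.798), although Ccl22 passed as lower after S-PRT without S-PRT 4 (0.0369) and without the libraries that stand apart (0.0402).

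No ligand passed the test between the 2 beams. In skin 0 of 26 passed, where 0% of genes did. Log2 differences of F-PRT minus S-PRT ran from -0.66 for Cxcl9 to 1.46 for Cxcl11, and Cxcl11 alone had an unadjusted edgeR p under 0.05, at 0.0498 with an adjusted p of 0.999. In bone 0 of 23 passed, where 0.00531% of genes did. Bone differences ran from -0.13 for Ccl27a to 0.68 for Ccl11, with 21 of 23 above 0 and a median of 0.29, against 0.01 over all genes. At an unadjusted level of 0.05 by edgeR there were 4 ligands, Ccl2 (1.59-fold higher after F-PRT), Cxcl16 (1.28-fold), Ccl22 (1.58-fold) and Cxcl10 (1.40-fold), and none of them passed after adjustment. Over all genes, 634 of 18848 were under that level.

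For Ccl2 the F-PRT libraries, at 4.32 to 4.84 CPM, lay above the S-PRT libraries, at 2.35 to 3.48. S-PRT 2 held the lowest S-PRT value of several ligands and of the macrophage, T cell and dendritic cell marker sums. Without it the median difference was 0.17, with 21 of 23 above 0 and 2 at an unadjusted p under 0.05, where 498 of 19187 genes were. Without the libraries that stand apart the median was 0.16, with 18 of 24 above 0. DESeq2 and voom also called no ligand in either tissue. The 95% intervals reached from 0.31 to 1.66 log2 units on either side of the skin estimates and from 0.24 to 1.12 on either side of the bone estimates. Differences between the beams up to that far from a ligand's estimate are thus compatible with these libraries.

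The response to irradiation was set against the other tissue in a fit over all 24 libraries. For F-PRT the change in skin was lower than the change in bone for 10 of 31 ligands, where 5.99% of 20754 genes passed in that direction, and for S-PRT for 10 of 31, where 4.49% did. In either comparison these were Ccl2, Ccl22, Ccl27a, Cxcl9, Cxcl10, Cxcl13, Cxcl14, Cxcl16, Cx3cl1 and Xcl1. None passed in the other direction, and the comparisons share their untreated libraries. For 8 of the 10 (all but Ccl27a and Xcl1) the bone values rose in both comparisons while skin did not pass, and Ccl27a fell in skin while bone did not pass.

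**Figure D4:**
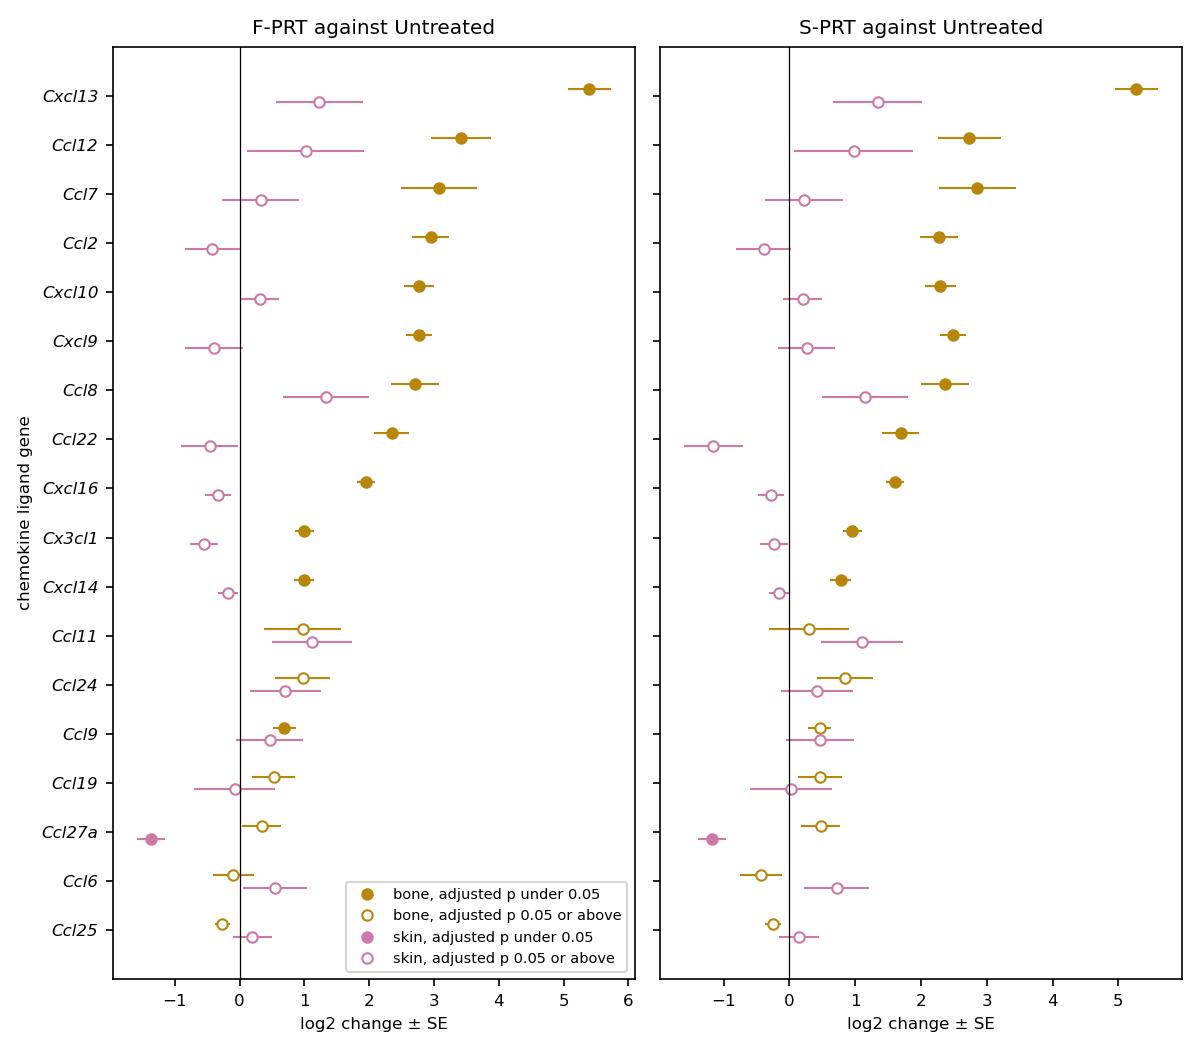
Log2 change from untreated ± SE after F-PRT (left) and S-PRT (right) for the 18 ligands measured in both tissues, with bone and skin in separate colours and filled symbols for edgeR adjusted p under 0.05. Bone symbols lie to the right for Cxcl13, Ccl12, Ccl7, Ccl2, Cxcl10 and Cxcl9, and the one filled skin symbol, at the left, is Ccl27a.

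The widest of these differences was that of Cxcl13, where the log2 change in skin minus that in bone was -4.20 for F-PRT and -3.93 for S-PRT (edgeR adjusted p = 0.0018 and 0.00282). In skin Cxcl13 stood at 1.70, 1.21, 5.93 and 1.00 CPM in the F-PRT libraries, 4.73, 1.79, 3.53 and 0.527 in S-PRT and 1.41, 0.658, 0.907 and 1.22 in Untreated, with one high library in F-PRT and overlap with untreated in both groups. Cxcl9 stood in skin at 1.12, 2.53, 1.00 and 1.09 CPM in the F-PRT libraries, 3.66, 2.26, 2.17 and 0.878 in S-PRT and 1.03, 2.30, 1.87 and 2.31 in Untreated, and the same difference was -3.19 and -2.22 (edgeR adjusted p = 1.49e-04 and 0.00321). Skin levels of Cxcl10 were 2.88, 2.99, 2.56 and 1.95 CPM in the F-PRT libraries, 3.88, 2.46, 1.72 and 1.46 in S-PRT and 2.17, 1.92, 2.06 and 2.19 in Untreated, with differences of -2.49 and -2.11 (edgeR adjusted p = 2.22e-04 and 0.00107). Untreated skin and bone did not pass for Cxcl10, with a log2 difference of -0.06 ± 0.29 (edgeR adjusted p = 0.864).

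Ccl2 began higher in skin and did not rise there. Its skin libraries read 5.22, 3.86, 3.72 and 2.36 CPM in the F-PRT libraries, 5.85, 4.41, 4.04 and 1.11 in S-PRT and 6.08, 6.96, 3.39 and 3.83 in Untreated, and the log2 change in skin minus that in bone was -3.39 and -2.68 (edgeR adjusted p = 4.10e-04 and 0.00348). For Ccl22 the skin values were 18.8, 20.8, 27.3 and 19.2 CPM in the F-PRT libraries, 14.96, 16.9, 18.8 and 2.40 in S-PRT and 40.8, 27.0, 31.7 and 19.2 in Untreated, with differences of -2.83 and -2.86 (edgeR adjusted p = 0.00333 and 0.00324). After S-PRT every skin library of Ccl22 was below the untreated range, which did not pass within skin. Cxcl16 had skin values of 54.4, 55.9, 59.2 and 46.4 CPM in the F-PRT libraries, 46.1, 42.5, 58.9 and 76.8 in S-PRT and 83.9, 79.0, 50.7 and 59.0 in Untreated, and differences of -2.32 and -1.91 with the smallest adjusted p of the 10 (edgeR, 3.98e-06 and 3.56e-05). Cx3cl1 in skin read 10.1, 11.6, 10.8 and 11.5 CPM in the F-PRT libraries, 12.6, 10.4, 13.02 and 18.7 in S-PRT and 22.9, 13.6, 14.3 and 13.6 in Untreated, with differences of -1.57 and -1.22 (edgeR adjusted p = 3.91e-04 and 0.0037). For Cxcl14 the differences were -1.19 and -0.95 and for Ccl27a -1.74 and -1.68, with edgeR adjusted p from 0.00196 to 0.0108.

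Xcl1 was below the filter in skin alone but entered the joint fit, where its change in skin minus that in bone was -3.20 and -3.17 (edgeR adjusted p = 0.0112 and 0.0141). Its skin libraries read 0.0532, 0.230, 0.251 and 0.500 CPM in the F-PRT libraries, 0.223, 0.359, 0.151 and 0.117 in S-PRT and 0.760, 1.59, 0.242 and 0.669 in Untreated, from raw counts of 29 at most, and the untreated libraries were the higher ones with overlap. The other monocyte attractants did not pass, although bone rose: Ccl7 differed by -2.78 and -2.64 (edgeR adjusted p = 0.0617 and 0.0853), Ccl8 by -1.40 and -1.24 (0.33 and 0.433) and Ccl12 by -2.43 and -1.78 (0.179 and 0.379). The Ccl7 differences passed for both beams with DESeq2 (adjusted p = 0.0158 and 0.0255), without the libraries that stand apart (0.0148 and 0.0262) and without skin S-PRT 4 (0.0105 and 0.0459). For F-PRT Ccl7 also passed with voom (0.0273) and without bone F-PRT 1 (0.0464), bone Untreated 1 (0.0397) or skin Untreated 3 (0.0456). Ccl20 and Ccl27b entered the joint fit and did not pass, but with 4 and 0 counts over all bone libraries they allow no dependable comparison. Ccl27b passed for F-PRT with voom (-2.15, adjusted p = 0.0413). Cxcl1, below the filter in bone alone, passed without skin Untreated 3 (edgeR adjusted p = 0.0352 and 0.0422). For S-PRT it also passed without skin S-PRT 2 (0.0364). The change in skin was lower than that in bone for 7 of 8 T cell markers with each beam, for 3 and 2 of 8 dendritic cell markers, and for none of 8 macrophage markers. Whether these shifts bear on the ligands was not tested.

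Many of the ligand genes lie in clusters, and the counts by cluster regroup calls given above. Over all genes tested in bone, 15.5% rose and 17.2% fell after F-PRT, and 13.3% rose and 15.2% fell after S-PRT. In skin 2.52% fell after S-PRT. On chromosome 11 the genes Ccl2, Ccl7, Ccl11, Ccl12 and Ccl8 lie within chr11:82035571-82116799, and 4 of the 5 rose in bone after each beam. A second group on that chromosome, Ccl5, Ccl9, Ccl6, Ccl3 and Ccl4, lies at chr11:83525778-83664683, where 4 of 5 rose after F-PRT and 1 after S-PRT. At chr5:92321347-92365485 Cxcl9 and Cxcl10 rose in bone after each beam, and at chr8:94745590-94812036 Ccl22 and Cx3cl1 rose while Ccl17 was not measured. At chr5:90759360-90905938, which holds the CXCR2 ligands Cxcl5, Cxcl3, Cxcl1 and Cxcl2 together with Cxcl15, the one gene measured in bone fell, and of 3 measured in skin 1 fell after S-PRT. Some ligands share exon bases with a gene on the opposite strand, and the labels do not say whether strand was used in counting: this touches 18.3% of the exon bases of Cxcl16 (Zmynd15), 18.7% of Xcl1 (Gm20743), 5.91% of Cxcl10 (Art3) and 2.74% of Ccl25 (Elavl1).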

How the data were processed

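Gene-level RSEM tables of 24 libraries were used, each listing expected counts, TPM and FPKM per gene as deposited by the authors. The submitters' processing notes name GRCm38 as the build and list RSEM, STAR, cutadapt and FastQC, with no versions. Of 55471 gene identifiers, 55230 matched the GENCODE M21 annotation, which supplied symbols and gene coordinates on GRCm38. The deposited TPM values are scaled for length and library size and were used for levels between genes and for 1 check of the scaling, and the deposited FPKM values were not used.

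The authors' expected counts were rounded and analysed per tissue over 12 libraries in edgeR 4.0.16 under R 4.3.3, with filterByExpr, TMM scaling, the quasi-likelihood F test and Benjamini-Hochberg adjustment over all genes tested. The untreated tissues and the tissue by treatment interactions were fitted over all 24 libraries. These steps were first tested on simulated data. Replicates are labelled biological, with no animal named, so the p-values measure the spread between these samples. Depth per library limits low ligands, where a level of 0 allows up to 3 counts.

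The ligands, marker lists and receptor lists were chosen with earlier results of these data known. Per-library values are given for ligands past adjusted p 0.05 in a comparison within a tissue or in an interaction and for the 6 ligands of highest untreated TPM in each tissue, and receptors are named where they passed or receive a ligand described in full. Alternatives were DESeq2 1.42.0, voom of limma 3.58.1 with quality weights, the replicate block, a low-count filter left out or set to 1 CPM in 4 libraries, RLE scaling, the compared libraries alone and each library left out. Leaving out 5 libraries together was added after the data were seen. Results that involve items withheld for evaluation are not reported here.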

Additional observations from a re-analysis of the deposited data

Results flagged for a closer look

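In 4 of 147 groups of 4 libraries, 1 library lay further from the others than Dixon's 95% limit allows, where chance flags about 1 in 20 groups. Cxcl9 was 2.53 CPM in skin F-PRT 2 against 1.00 to 1.12 CPM in the other F-PRT libraries. Cxcl13 was 5.93 CPM in skin F-PRT 3 against 1.00 to 1.70 CPM. Cx3cl1 was 22.9 CPM in skin Untreated 1 against 13.6 to 14.3 CPM. Ccl6 was 44.0 CPM in bone S-PRT 2 against 87.6 to 90.8 CPM.

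The effect of irradiation differed between the tissues by an interaction term for 10 ligands per beam, and the comparisons share the untreated libraries. The log2 change in skin minus that in bone after F-PRT was -3.39 for Ccl2, -2.83 for Ccl22, -1.74 for Ccl27a, -3.19 for Cxcl9, -2.49 for Cxcl10 and -4.20 for Cxcl13. It was -1.19 for Cxcl14, -2.32 for Cxcl16, -1.57 for Cx3cl1 and -3.20 for Xcl1. After S-PRT the difference was -2.68 for Ccl2, -2.86 for Ccl22, -1.68 for Ccl27a, -2.22 for Cxcl9, -2.11 for Cxcl10 and -3.93 for Cxcl13. It was -0.95 for Cxcl14, -1.91 for Cxcl16, -1.22 for Cx3cl1 and -3.17 for Xcl1.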

How the results depend on the processing

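Of 79 calls of a ligand as higher or lower, 69 kept their direction and their side of the threshold in every alternative run, 10 were lost in some, and none reversed. Those lost were Ccl3, Ccl4, Ccl9 and Xcl1 in bone after F-PRT, Ccl5 in bone after S-PRT, Cxcl1 in skin after S-PRT, and Ccl6, Ccl19, Ccl25 and Cxcl2 between the untreated tissues, and the cause was not tested. The count of ligands past the test in skin after F-PRT, 2, became 4 with DESeq2, 5 with voom and 5 without the 5 libraries that stand apart. After S-PRT it was 3, became 6 with voom and 7 without the libraries that stand apart, and ran from 2 to 7 when 1 library was left out, with 7 without S-PRT 4. With the replicate block the counts were 2 and 3 in skin and 17 and 13 in bone after F-PRT and S-PRT, 21 between the untreated tissues and 10 in each interaction. The share of all genes called in the same fit is not set beside these counts, so they are not read as a result about the ligands. In bone after S-PRT the block lost Ccl5 (adjusted p = 0.057) and gained Ccl9 (0.0385). Same-numbered libraries of a tissue had correlated deviations of -0.343 to 0.372 in skin (7 of 12 over 0.1) and of -0.261 to 0.187 in bone (3 of 12 over 0.1), against 8 of 36 and 9 of 36 over 0.1 for libraries of different number. Since not every pair was over 0.1, the numbers were not taken as pairs. That rule is strict, and failing it does not show that the libraries were unpaired. The median in skin was 0.12 for same-numbered libraries against -0.02 for the others, and in bone -0.04 against -5e-04. Ligands under about 1 CPM rest on few counts.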

Other observations

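Ccl25, the ligand of CCR9 best known from thymus and small intestine, had expected counts of like size in both tissues. They ran from 251 to 353, with a median of 325, in 23 libraries, while skin Untreated 1 held 95. The variance over those 23 libraries was 2.02 times the mean. Over 5467 genes of like level the median of that ratio was 39.4, and 2 genes had a lower one. In skin alone, with that library kept, the ratio was 15.3 against a median of 13.1 over 5047 genes of like level, 2836 of them lower. In bone alone it was 2.52 against 17.2 over 5229 genes, 37 of them lower. The 23-library value was thus obtained only by leaving out 1 library.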
